A study of Mus musculus with 12 samples.

Results

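Bone morphogenetic protein (BMP) signalling was followed in mouse embryonic fibroblasts through 10 genes: the ligands Bmp2, Bmp4 and Bmp7, the secreted antagonists Grem1 and Nog, the inhibitory SMAD Smad6 and the responder genes Id1, Id2, Id3 and Id4. The genes were taken as the array probes whose accession maps to these 10 names, out of 21367 named genes on the array, and they were chosen with their levels in these samples already known. Their values over the 4 groups are therefore given as a description, without a test. Of the 10 genes, 9 passed the filter on dim probes, which asks for 1 group with its 3 arrays all well above background and which 14444 genes passed in all; the exception was Bmp7.

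BMP ligands bind paired type I and type II serine/threonine kinase receptors, which phosphorylate SMAD1, SMAD5 and SMAD9; these enter the nucleus with SMAD4 and switch on target genes, among which the Id genes are the classic immediate responders in fibroblasts and many other cells. ID proteins lack a DNA-binding region and hold basic helix-loop-helix partners, such as the E proteins, away from DNA. Gremlin and noggin bind the ligands outside the cell, and SMAD6, itself a target of the pathway, dampens it from within.

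Embryonic fibroblasts of C57BL/6 mice, isolated at E12.5 to E13.5, were transduced with viral vectors in 4 ways, with 3 arrays in each group and labels that call the replicates biological and independent. RASV12-first cells received oncogenic RAS (RASV12) and then a short hairpin against p53 mRNA (shp53); shp53-first cells received the same vectors in the opposite order; RASV12 cells and shp53 cells received 1 vector each. Every group carried a vector, there was no untransduced group among these samples, and whether replicates shared a litter is not given in the sources used here, so the spread between arrays may be partly technical. Cy3-labelled RNA from 100 ng of total RNA was hybridised to 1-colour Agilent arrays.

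All levels below are log2 of the processed spot signal minus the array's 75th percentile, so that 0 is the signal of the spot at that percentile and each unit is a doubling; a level of 1 probe is never set against that of another. Between 56.6% and 62.4% of the non-control spots of an array were well above background, no spot was saturated, and the lowest signal called well above background lay between -6.39 and -5.46 on this scale. Trp53, the target of the hairpin, stood at -4.14, -4.01 and -3.83 in RASV12-first cells, at -3.98, -3.43 and -3.44 in shp53-first cells, at -0.35, -0.75 and -0.58 in RASV12 cells, and at -3.22, -3.55 and -3.06 in shp53 cells. It was thus low on every array labelled as carrying the hairpin, and 10.8-fold lower in RASV12-first than in RASV12 cells (limma adjusted p = 9.92e-07).

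In each group 1 array stood apart: replicate 1 of RASV12-first and of shp53-first cells, and replicate 2 of RASV12 and of shp53 cells, correlated with their group at r = 0.967 to 0.981 over all genes tested, while the other pair of each group correlated at 0.993 to 0.998. Replicate number, slide and scan coincide, and each of the 3 slides held 1 array of each group. Per-slide differences are therefore given, but whether cultures were paired by number is not settled. In RASV12-first against RASV12 and shp53-first against shp53 cells, slides 1 and 2 each set an array that stood apart against 1 that did not. All 13 fibroblast markers were well above background on all 12 arrays. The summed level of 8 macrophage and leukocyte markers, in units of the 75th percentile, was 5.97 to 9.07 in RASV12-first cells, 8.93 to 12.4 in shp53-first cells and 9.21 to 20.4 in RASV12 cells, against 61.2, 10.6 and 60.9 in shp53 cells. Ptprc, the pan-leukocyte gene, was well above background on all 3 shp53 arrays and on no other. The sum was higher on replicates 1 and 3 of shp53 cells than on any other array. Replicate 2, at 10.6, lay within the ranges of shp53-first and RASV12 cells. These markers thus differ in both comparisons against shp53 cells on 2 of the 3 shp53 arrays, and their part in the results was not tested. Other lists also moved with the groups or with the arrays that stood apart, and their part was not tested either. The summed level of 7 epithelial markers was 9.67, 1.89 and 1.74 in RASV12-first cells, 11.2, 1.55 and 1.59 in shp53-first cells and 6.95 to 7.44 in RASV12 cells, against 0.688 to 0.932 in shp53 cells, with Epcam and Cdh1 below background in all groups. That of 5 skeletal muscle markers was 1.16 to 2.21 in RASV12-first cells, 0.286 to 1.05 in shp53-first cells and 3.04 to 3.64 in RASV12 cells, against 7.83 to 15.1 in shp53 cells, with Myod1, Myog and Myf5 below background in all groups. That of 5 adipocyte markers was 23.1, 6.21 and 5.10 in RASV12-first cells, 13.0, 4.26 and 4.19 in shp53-first cells and 2.31 to 4.63 in RASV12 cells, against 1.75 to 1.85 in shp53 cells, with Lep below background in all groups. Other members of these lists were detected. The epithelial Krt18, the muscle gene Acta1 and the adipocyte genes Fabp4 and Pparg were well above background on all 12 arrays. The muscle gene Des was so on all 3 shp53 arrays.

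Bmp2, a ligand for the type I receptors BMPR1A and BMPR1B, stood at 2.55, 2.21 and 2.12 in RASV12-first cells, at 3.32, 1.28 and 1.38 in shp53-first cells, at -0.44, 1.28 and -0.34 in RASV12 cells, and at -4.67, -4.29 and -4.85 in shp53 cells. Every group with RASV12 was far above shp53 cells, where the signal, though well above background on all 3 arrays, was near the lower end of what the arrays register. The difference was 6.60 ± 0.56 (standard error of the fit over all 12 arrays), or 96.7-fold, in shp53-first against shp53 cells, and 4.77 ± 0.56, or 27.3-fold, in RASV12 against shp53 cells. RASV12-first cells were above RASV12 cells by 2.13 ± 0.56, or 4.37-fold, with slides at 2.99, 0.93 and 2.46.

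The order of the vectors left Bmp2 overlapping between the doubly transduced groups: the difference was 0.30 ± 0.56, with slides at -0.77, 0.93 and 0.74. It turned to -0.06 without replicate 2 of shp53-first cells and to -0.23 under normexp background correction. Normexp subtracts each spot's local background, fits 1 model of signal and remaining noise per array, and here adds an offset of 50 to every signal. Such an offset by itself makes log2 differences that involve dim spots smaller. Its share in the changes under normexp, here and below, was not tested. The Bmp2 difference was 0.96 without replicate 1 of shp53-first cells, and 0.83 without the 4 arrays that stood apart, where the groups did not overlap. The shp53-first and RASV12 groups did not overlap, but their nearest arrays were level at 1.28. Under normexp the differences against shp53 cells were 3.48 for shp53-first and 1.80 for RASV12 cells.

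Bmp4, a close relative of Bmp2 acting through the same receptors, ran the other way. Its level was -7.08, -6.86 and -6.71 in RASV12-first cells, not well above background on any array, against 1.97, 0.22 and 0.08 in shp53-first cells, 1.16, 1.59 and 1.19 in RASV12 cells, and 3.11, 3.89 and 3.08 in shp53 cells. The 3 other groups were all well above background, and the RASV12-first arrays lay apart from every one of their arrays. Set against the lowest signal well above background, Bmp4 was at least 107-fold lower in RASV12-first than in shp53-first cells and at least 158-fold lower than in RASV12 cells. These bounds take, on each dim array, the higher of the lowest signal well above background and the probe's own signal.

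Against shp53 cells, Bmp4 was lower by 2.61 ± 0.44 on the log2 scale (6.08-fold) in shp53-first cells and by 2.05 ± 0.44 (4.14-fold) in RASV12 cells, without overlap. The shp53-first and RASV12 groups overlapped. The fitted differences of RASV12-first cells, -7.64 against shp53-first and -8.20 against RASV12 cells, include a group below background; under normexp they were -2.51 and -3.02, and -3.94 and -4.44 once extreme local backgrounds were replaced. A second Bmp4 probe was not well above background on any of the 12 arrays and gives no difference. RNA of whole cultures was measured, so fewer cells with a transcript and less of it per cell cannot be told apart, here and for every gene below.

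Bmp7, a ligand that signals chiefly through the type I receptor ACVR1, was well above background on 1 of 12 arrays, replicate 1 of shp53-first cells, at -5.25. Its other 11 values lay between -8.49 and -6.43. No difference is given for it.

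**Figure D1:**
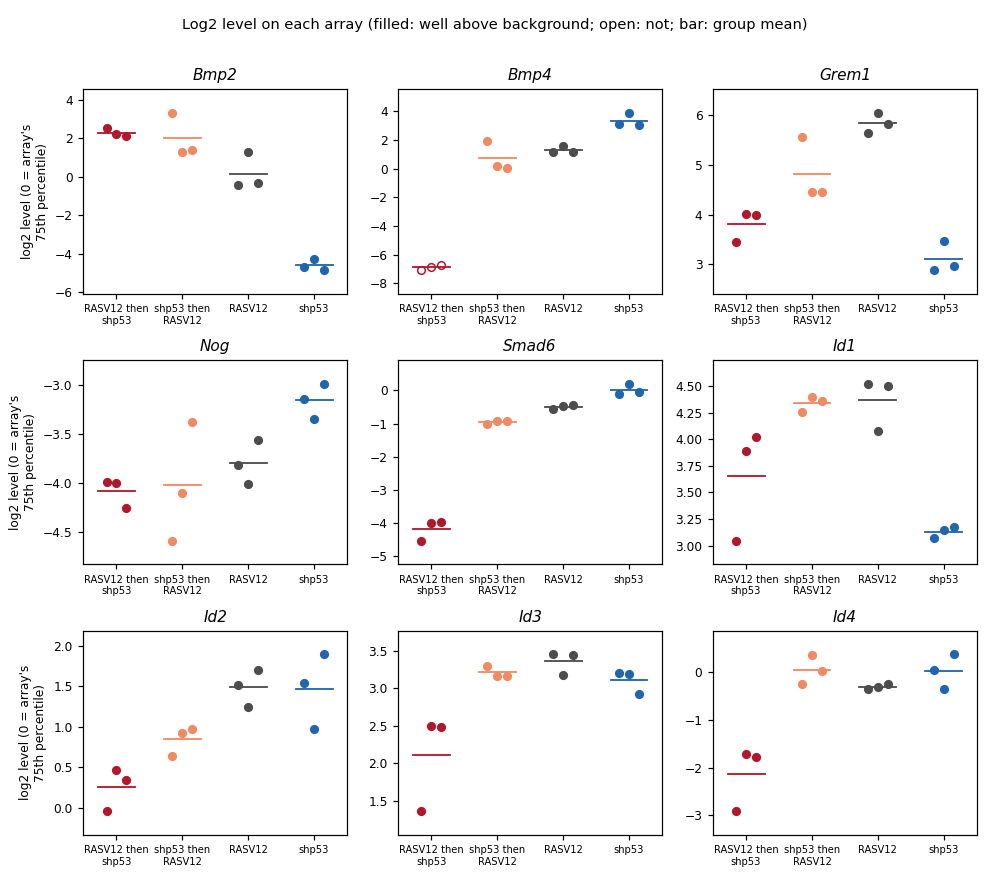
Log2 level (0 is the array's 75th percentile) of the 9 genes that passed the filter, on each of the 12 arrays, with replicates 1 to 3 left to right within a group and bars at the group means. Bmp4 is below background on all RASV12-first arrays (open points), Smad6 and Id4 are lowest there, and Bmp2 is lowest in shp53 cells.

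Of the antagonists, Grem1, which encodes gremlin, stood at 3.44, 4.01 and 3.99 in RASV12-first cells, at 5.56, 4.46 and 4.45 in shp53-first cells, at 5.64, 6.04 and 5.82 in RASV12 cells, and at 2.89, 3.47 and 2.97 in shp53 cells. RASV12 cells were highest and shp53 cells lowest, and the shp53 array nearest to RASV12-first cells, at 3.47, lay just above their lowest, at 3.44. Grem1 was higher by 2.72 ± 0.30 (6.61-fold) in RASV12 against shp53 cells and by 1.71 ± 0.30 (3.28-fold) in shp53-first against shp53 cells. The log2 difference was -2.02 ± 0.30 (4.05-fold lower) in RASV12-first against RASV12 cells.

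Between the 2 orders, Grem1 differed by -1.01 ± 0.30 in RASV12-first against shp53-first cells, without overlap. Replicate 1 decided much of that size: the slides gave -2.11, -0.45 and -0.46, and the difference was -0.64 without replicate 1 of shp53-first cells and -0.46 without the 4 arrays that stood apart.

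Nog, which encodes noggin, was low in all groups: -3.99, -4.00 and -4.26 in RASV12-first cells, -4.59, -4.10 and -3.38 in shp53-first cells, -3.82, -4.01 and -3.56 in RASV12 cells, and -3.14, -3.35 and -2.99 in shp53 cells. RASV12-first cells overlapped both groups they were compared with, at -0.06 ± 0.27 against shp53-first and -0.29 ± 0.27 against RASV12 cells, and under normexp these turned to 0.65 and 1.11. Nog was lower against shp53 cells without overlap, at -0.87 ± 0.27 in shp53-first and -0.64 ± 0.27 in RASV12 cells. With normexp after extreme local backgrounds were replaced, these 2 differences were -0.12 and -0.23, and under plain normexp the one of RASV12 cells was -1.36.

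Smad6 separated all 4 groups. It stood at -4.52, -3.98 and -3.97 in RASV12-first cells, -1.01, -0.93 and -0.91 in shp53-first cells, -0.57, -0.46 and -0.43 in RASV12 cells, and -0.10, 0.21 and -0.04 in shp53 cells. No neighbouring groups in that order overlapped. In RASV12-first cells the signal, though well above background on all 3 arrays, was near the lower end of what the arrays register. RASV12-first cells were 9.26-fold lower than shp53-first cells (log2 difference -3.21 ± 0.16; slides -3.51, -3.05 and -3.07) and 12.7-fold lower than RASV12 cells (-3.67 ± 0.16; slides -3.95, -3.52 and -3.54). Against shp53 cells the differences were smaller, at -0.97 ± 0.16 in shp53-first and -0.51 ± 0.16 in RASV12 cells. Under normexp the differences of RASV12-first cells were -0.99 and -1.31, and -2.0 and -2.37 once extreme local backgrounds were replaced.

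The 250 bases upstream of the annotated start of Bmp4, Smad6, Id2, Id3 and Id4, the genes whose level was lowest in RASV12-first cells without overlap with any other group, are shown because BMP-responsive SMADs are known to bind GC-rich sites and the CAGAC box near targets of this family. Capitals mark GGCGCC and CAGAC or its reverse complement GTCTG, searched on both strands. The sequences are from RefSeq promoters of build GRCm38.p6, which held 6 of the 10 genes, at chr14:46390670-46390919 (minus strand) for Bmp4, chr9:64022060-64022309 (minus strand) for Smad6, chr12:25096093-25096342 (minus strand) for Id2, chr4:136143572-136143821 (plus strand) for Id3 and chr13:48260866-48261115 (plus strand) for Id4.
Bmp4: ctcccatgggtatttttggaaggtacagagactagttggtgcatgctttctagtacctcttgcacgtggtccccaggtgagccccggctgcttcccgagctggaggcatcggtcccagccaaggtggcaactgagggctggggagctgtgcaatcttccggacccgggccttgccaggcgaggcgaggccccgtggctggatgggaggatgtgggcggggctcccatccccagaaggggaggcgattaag
Smad6: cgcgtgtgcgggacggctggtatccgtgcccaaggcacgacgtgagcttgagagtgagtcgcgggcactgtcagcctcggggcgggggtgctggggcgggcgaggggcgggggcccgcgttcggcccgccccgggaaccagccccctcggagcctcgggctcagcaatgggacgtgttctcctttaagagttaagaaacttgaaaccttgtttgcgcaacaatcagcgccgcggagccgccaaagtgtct
Id2: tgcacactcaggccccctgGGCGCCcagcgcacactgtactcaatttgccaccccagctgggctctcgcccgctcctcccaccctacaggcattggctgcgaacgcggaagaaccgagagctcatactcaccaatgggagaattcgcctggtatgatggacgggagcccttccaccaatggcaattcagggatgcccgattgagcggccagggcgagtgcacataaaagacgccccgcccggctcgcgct
Id3: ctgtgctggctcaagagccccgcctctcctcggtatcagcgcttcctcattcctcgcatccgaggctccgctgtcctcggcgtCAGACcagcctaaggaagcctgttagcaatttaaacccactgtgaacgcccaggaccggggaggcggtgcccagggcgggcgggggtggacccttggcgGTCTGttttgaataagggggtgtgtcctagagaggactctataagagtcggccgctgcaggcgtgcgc
Id4: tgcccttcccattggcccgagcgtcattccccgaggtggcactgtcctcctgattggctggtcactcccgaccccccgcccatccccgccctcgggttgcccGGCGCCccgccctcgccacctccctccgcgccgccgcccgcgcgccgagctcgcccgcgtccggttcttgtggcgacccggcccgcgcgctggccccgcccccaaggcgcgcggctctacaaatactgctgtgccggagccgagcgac
In these windows GGCGCC occurred once each in Id2 and Id4, CAGAC or GTCTG was found at 2 places in Id3, and neither motif was in the Bmp4 and Smad6 windows. Among all 32851 promoter windows of that length in the table, 9.59% held GGCGCC and 42.2% held CAGAC or GTCTG. A match describes letters in the window and no binding was measured here.

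The ID proteins bind the same kind of partner, but their genes had different levels over the groups. Id4 stood at -2.92, -1.72 and -1.78 in RASV12-first cells, -0.25, 0.36 and 0.03 in shp53-first cells, -0.35, -0.31 and -0.24 in RASV12 cells, and 0.05, -0.35 and 0.38 in shp53 cells. RASV12-first cells lay below all other arrays, and the other 3 groups overlapped. The difference of RASV12-first cells was -2.19 ± 0.31 (4.55-fold lower; slides -2.66, -2.08 and -1.81) against shp53-first and -1.84 ± 0.31 (3.58-fold lower; slides -2.57, -1.41 and -1.54) against RASV12 cells, and under normexp -0.85 and -0.59.

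Id3 stood at 1.36, 2.50 and 2.49 in RASV12-first cells, 3.30, 3.17 and 3.17 in shp53-first cells, 3.45, 3.17 and 3.45 in RASV12 cells, and 3.21, 3.19 and 2.92 in shp53 cells. Here too RASV12-first cells lay below all other arrays, and the other groups overlapped. The differences were -1.1 ± 0.27 against shp53-first and -1.24 ± 0.27 against RASV12 cells. Replicate 1 of RASV12-first cells was the lowest of all; without it the differences were -0.72 and -0.87, and the one against shp53-first cells was -0.68 without the 4 arrays that stood apart.

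Id2 followed a stepped order, with -0.05, 0.46 and 0.34 in RASV12-first cells, 0.63, 0.92 and 0.97 in shp53-first cells, 1.51, 1.24 and 1.70 in RASV12 cells, and 1.54, 0.97 and 1.89 in shp53 cells. RASV12-first cells were below shp53-first cells (difference -0.59 ± 0.24) and below RASV12 cells (-1.23 ± 0.24), without overlap; with arrays centred on their median the difference against shp53-first cells was -0.34. RASV12 and shp53 cells were close, at 0.02 ± 0.24, and shp53-first cells overlapped shp53 cells at -0.63 ± 0.24, or -0.41 without replicate 3 of shp53 cells.

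Id1 stood at 3.05, 3.89 and 4.02 in RASV12-first cells, 4.26, 4.40 and 4.36 in shp53-first cells, 4.53, 4.08 and 4.50 in RASV12 cells, and 3.08, 3.15 and 3.17 in shp53 cells. Replicate 1 of RASV12-first cells lay just below the shp53 arrays, and the other 8 arrays with RASV12 lay above them. Id1 was higher by 1.21 ± 0.23 (2.31-fold) in shp53-first and by 1.24 ± 0.23 (2.36-fold) in RASV12 cells against shp53 cells, without overlap. RASV12-first cells were lower than shp53-first cells (-0.69 ± 0.23) and than RASV12 cells (-0.72 ± 0.23), but without their replicate 1 these differences were -0.38 and -0.42, and with arrays centred on their median -0.44 and -0.46; under normexp they were -1.07 and -1.37.

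By comparison, RASV12-first against shp53-first cells had 7 of the 9 genes lower without overlap, none higher, and Bmp2 and Nog overlapping; the groups of 32.1% of all genes tested did not overlap in that comparison, 16% higher and 16.1% lower. RASV12-first against RASV12 cells had the same 7 lower, Bmp2 higher and Nog overlapping, with 51.1% of all genes not overlapping, 22.8% higher and 28.3% lower. Both comparisons use the RASV12-first arrays. In shp53-first against shp53 cells 3 were higher (Bmp2, Grem1 and Id1), 3 lower (Bmp4, Nog and Smad6) and 3 overlapped (Id2, Id3 and Id4), with 53.3% of all genes not overlapping (25.9% higher, 27.4% lower), and RASV12 against shp53 cells gave those counts for the same genes, with 51.2% (27.3% and 23.9%); both use the shp53 arrays. Because the genes were chosen on these values, nothing is read from the counts. Without the 4 arrays that stood apart, 7 genes were lower and 1 higher in RASV12-first against shp53-first cells, where 74.5% of all genes then did not overlap. The counts were 8 lower and 1 higher in RASV12-first against RASV12 cells (83.8%), 4 lower and 3 higher in shp53-first against shp53 cells (85.5%), and 4 lower and 4 higher in RASV12 against shp53 cells (82.2%).

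**Figure D2:**
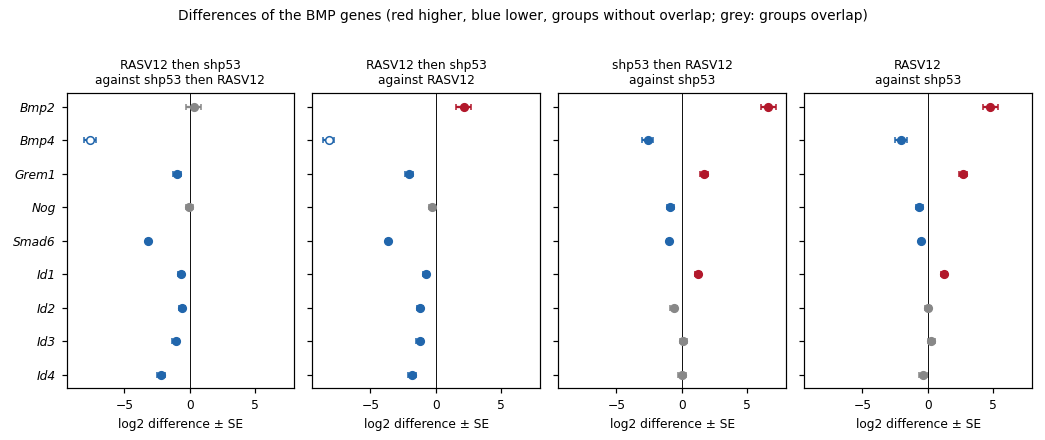
Log2 difference with its standard error for the 9 genes in the 4 comparisons; open points mark differences in which 1 group is below background. Bmp4 and Smad6 lie furthest to the left for RASV12-first cells, and Bmp2 furthest to the right in the comparisons against shp53 cells, at 6.60 and 4.77.

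The genes whose profiles over the 12 arrays were most like those of the 4 genes with the widest range of group means were found by the root mean square difference of mean-centred log2 levels. The genes compared had a value on all 12 arrays and left out the BMP genes followed here and clone or locus names. For Bmp4 the nearest were C1qtnf5 (0.871) and Cemip (1.27), against a median of 3.93 over the genes compared. For Bmp2 they were Sox7 (0.697) and Scin (0.734), with a median of 2.85, and for Smad6 Ltbp2 (0.270) and Foxp1 (0.331), with a median of 1.69. Grem1 was most like Gprc5b (0.245) and Garem2 (0.283), with a median of 1.16. The 12 arrays are shared by every gene, and these are descriptions of likeness.

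Around these genes, 78 other genes of the pathway were placed in 7 lists by role, and 62 passed the filter. The lists too were chosen with earlier results of these data known, so the calls and counts below are no independent test of the pathway. Among the 62, a gene was called changed at a limma adjusted p under 0.05, adjusted over all 14444 genes. RASV12-first against shp53-first cells called 6 higher and 16 lower of 62, where 15.8% of all genes were called (7.33% higher, 8.47% lower); their median log2 difference was -0.18, against 0.00 over all genes. RASV12-first against RASV12 cells called 11 higher and 26 lower (38.8% of all genes, 17.2% higher and 21.7% lower; median -0.44, against -0.07). The shp53-first against shp53 comparison called 12 higher and 19 lower (37.6% of all genes, 17.3% higher and 20.3% lower; median -0.10, against 0.03), and RASV12 against shp53 called 12 higher and 14 lower (27.1% of all genes, 14.3% higher and 12.8% lower; median 0.03, against 0.05). The leukocyte markers above were higher on 2 of the 3 arrays of the shp53 cells, which the last pair of comparisons share. The lists hold 5 to 13 tested genes each. These shares of all genes also apply to the counts per list below, and nothing is read from those counts.

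Without the 4 arrays that stood apart, 39 of the 62 genes were called in RASV12-first against shp53-first cells. The counts were 49 in shp53-first against shp53 and 42 in RASV12 against shp53 cells. Of all genes tested, 6937, 9873 and 8451 were then called, against 2282, 5431 and 3916 with all arrays. Leaving out the array furthest from its group narrows the spread, so nothing is read from the higher counts. With the closest pair of each group averaged to 1 sample, the counts among the 62 were 5, 10 and 7, beside 424, 1702 and 1031 of all genes. They were 13 and 1489 in RASV12-first against RASV12 cells. Under normexp none of the 62 was called by limma in RASV12-first against shp53-first cells, where 7 had an unadjusted p under 0.05. The others, in the order RASV12-first against RASV12, shp53-first against shp53, RASV12 against shp53, had 5, 4 and 2 called. Of all genes, 65, 823, 386 and 436 were called in the 4 comparisons. Centring arrays on their median in place of the 75th percentile put the median difference of all genes at 0.25, 0.19, 0.11 and 0.12 in that order, against 0.00, -0.07, 0.03 and 0.05, and moved the share of higher calls among all genes: it was 68.5% with median centring and 46.4% with the percentile in RASV12-first against shp53-first cells, and 63.6% and 44.2% in RASV12-first against RASV12 cells.

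**Figure D3:**
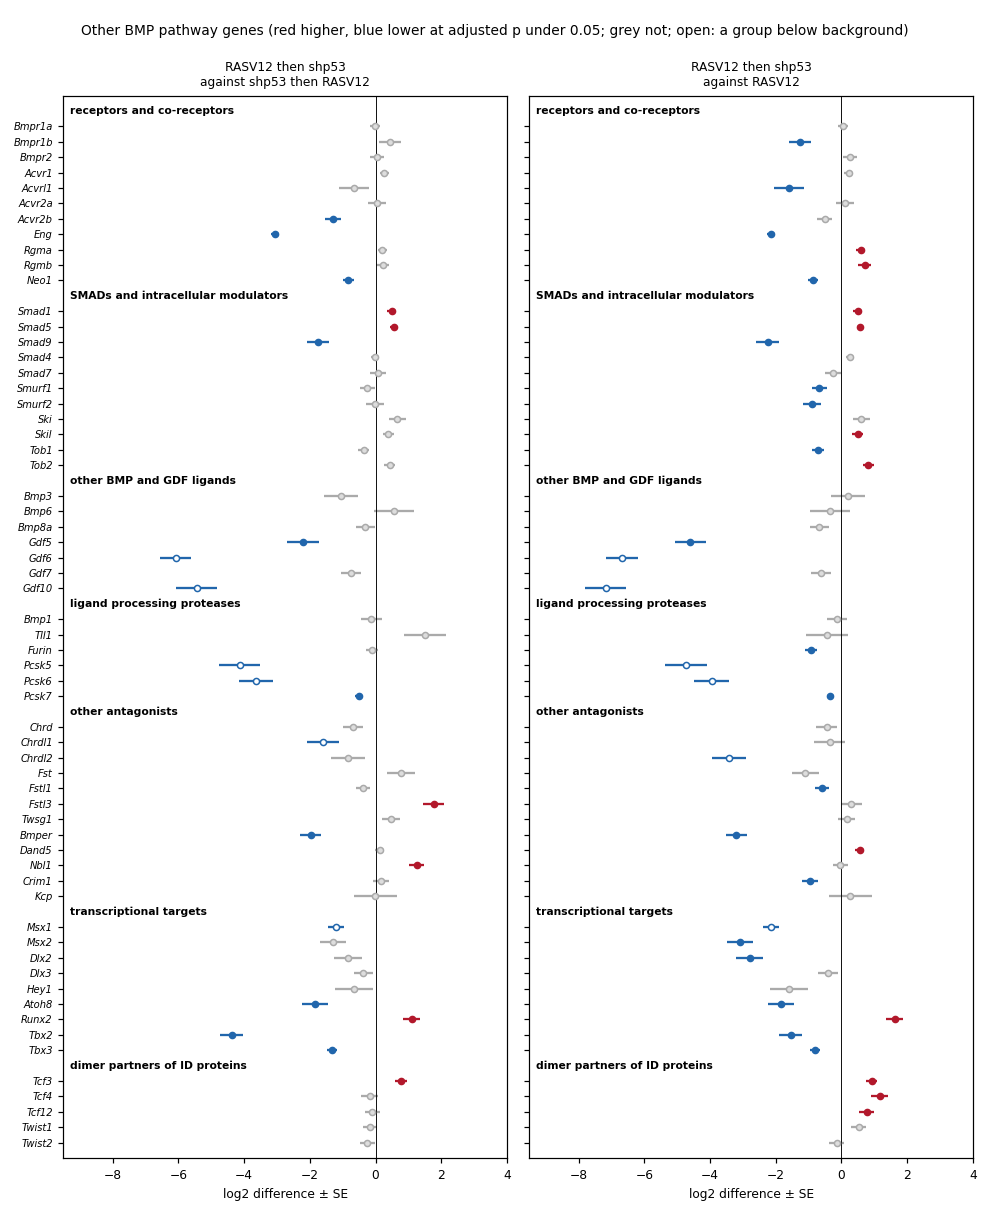
Log2 difference with its standard error of 61 of the 62 other pathway genes, by list, in RASV12-first against shp53-first cells (left) and against RASV12 cells (right). Coloured points passed limma's adjusted p threshold and open points include a group below background. Gdf6, Gdf10, Pcsk5, Pcsk6, Eng and Tbx2 fell in RASV12-first against shp53-first cells, and Runx2, Fstl3 and Nbl1 rose.

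Receptors and co-receptors numbered 11 tested, of which 3 fell and none rose in RASV12-first against shp53-first cells (8.47% and 7.33% of all genes). The 3 were Eng, Acvr2b and Neo1. Eng, the co-receptor endoglin, stood at -3.83, -3.74 and -3.83 in RASV12-first cells, against -0.87, -0.70 and -0.66 in shp53-first cells, and fell by 3.06 ± 0.11 (8.33-fold, adjusted p = 1.14e-07). Against RASV12 cells, at -1.64, -1.56 and -1.75, it fell by 2.15 ± 0.11 (adjusted p = 5.68e-07), or by 1.30 with extreme backgrounds replaced. Acvr2b, a type II receptor, fell by 1.29 ± 0.23 (adjusted p = 0.00395) against shp53-first cells.

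Against RASV12 cells, 2 of these receptors rose and 4 fell in RASV12-first cells, among them Acvrl1 (-1.60 ± 0.45, adjusted p = 0.0177) and Bmpr1b (-1.26 ± 0.34, adjusted p = 0.0139), both type I receptors; Acvrl1 lost the call without replicate 2 or 3 of RASV12-first or replicate 1 of RASV12 cells (adjusted p from 0.0520 to 0.0683), and Bmpr1b with median centring. In shp53-first against shp53 cells 4 rose and 6 fell: Acvr2a, a type II receptor, fell by 1.91 ± 0.26 (adjusted p = 0.000359) and Bmpr1b fell by 2.09 ± 0.34 (0.000901), and Rgmb (1.44 ± 0.21, 0.000453) and Acvr2b (1.21 ± 0.23, 0.00249) rose. In RASV12 against shp53 cells 1 rose and 5 fell, with Acvr2a at -1.97 ± 0.26 (adjusted p = 0.000414) and Acvrl1 at -1.38 ± 0.45 (0.0448), a call that passed in 13 of 24 alternatives.

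Of the main type I receptors, named after their values were seen, Bmpr1a overlapped between RASV12-first cells (1.28, 1.11 and 1.19) and shp53-first cells (1.51, 1.04 and 1.07). It fell by 0.81 ± 0.14 (adjusted p = 0.00141) in shp53-first and by 0.88 ± 0.14 (0.00122) in RASV12 cells against shp53 cells, which stood at 2.0, 2.04 and 2.01. Acvr1 fell by 0.68 ± 0.14 (0.00316) and 0.64 ± 0.14 (0.00573) in the same comparisons, a call lost in RASV12 cells with median centring (0.0551). Bmpr2, the main type II receptor, passed the test in none of the 4.

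Of 11 SMADs and their intracellular modulators, 2 rose and 1 fell in RASV12-first against shp53-first cells (7.33% and 8.47% of all genes). Smad9 fell: it stood at -5.36, -4.92 and -4.66 in RASV12-first cells, -3.95, -2.72 and -3.00 in shp53-first cells, -2.57, -3.29 and -2.34 in RASV12 cells, and -3.31, -3.04 and -3.49 in shp53 cells. The difference was -1.76 ± 0.34 (adjusted p = 0.00641) against shp53-first and -2.25 ± 0.34 (0.000697) against RASV12 cells, and under normexp the sign turned in both, while with extreme backgrounds replaced the differences were -0.85 and -1.01. Smad5 rose by 0.55 ± 0.10 (0.00463) and 0.56 ± 0.10 (0.00187) against those groups, standing at 2.59, 2.47 and 2.44, and Smad1 rose by 0.49 ± 0.13 (0.0341) and 0.50 ± 0.13 (0.0148); both were named after their values were seen. The Smad1 call against shp53-first cells passed in 11 of 25 alternatives and not with the replicate as a block (adjusted p = 0.0558), the one against RASV12 cells was lost without replicate 3 of RASV12-first cells (0.0555), and the Smad5 one failed with only those groups in the fit (0.0579); against RASV12 cells Smad5 also turned under normexp.

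Against RASV12 cells 4 of these 11 rose and 4 fell in RASV12-first cells, and Smad9 was the single one past a log2 difference of 1. In shp53-first against shp53 cells 1 rose and 1 fell, and in RASV12 against shp53 cells 2 rose and none fell. Smad4, the shared partner, passed in none of the 4 comparisons.

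Among 7 other BMP and GDF ligands tested, of 12 listed, 3 fell and none rose in RASV12-first cells in both of their comparisons. Of all genes, 8.47% fell against shp53-first cells and 21.7% against RASV12 cells. Gdf6, known for its part in joint and skeletal patterning, was below background in RASV12-first cells (-7.83, -8.34 and -8.45), against -2.18, -2.09 and -2.08 in shp53-first and -1.19, -2.12 and -1.27 in RASV12 cells. It was at least 14.6-fold lower than in shp53-first cells (adjusted p = 1.96e-05) and at least 22.0-fold lower than in RASV12 cells (4.84e-06). Gdf10 was at least 15-fold lower (0.000256) and at least 49.8-fold lower (1.90e-05) in the same comparisons. Background correction moved their size: with normexp after extreme backgrounds were replaced the log2 differences were -1.76 and -2.16 for Gdf6 and -1.64 and -2.90 for Gdf10, and under plain normexp -0.52 and -0.75 for Gdf6 and -0.37 and -1.47 for Gdf10, which left none of the 4 called.

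Gdf5, a relative of Gdf6, gave different answers from its 2 probes: the brighter fell by 2.21 ± 0.48 (adjusted p = 0.0108) and 4.60 ± 0.48 (6.08e-05) in RASV12-first against shp53-first and RASV12 cells, while the dimmer, which stands for the gene under a filter on all 12 arrays, was at 0.17 and -0.70 and was called in neither. The call of the brighter probe against shp53-first cells was also lost with extreme backgrounds replaced (0.107). In RASV12 against shp53 cells the brighter rose by 2.74 ± 0.48 (0.00197) and the dimmer was at 1.34. Gdf7 rose by 1.36 ± 0.30 (0.00586) in shp53-first and by 1.23 ± 0.30 (0.0128) in RASV12 against shp53 cells, and its sign turned in both under normexp; with extreme backgrounds replaced it was 0.42 in RASV12 cells and not called (0.236). Bmp3, below background outside shp53 cells, was at least 3.34-fold lower (0.00756) in shp53-first and at least 3.48-fold lower (0.000783) in RASV12 cells. Both Bmp3 calls ended with extreme backgrounds replaced, at log2 differences of -0.12 (0.772) and -0.53 (0.238).

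Of 6 proteases that process the ligands or their antagonists, 3 fell and none rose in RASV12-first against shp53-first cells and 4 fell against RASV12 cells. Of all genes, 8.47% and 21.7% fell in these comparisons. Pcsk5 and Pcsk6, proprotein convertases, were below background in RASV12-first cells: Pcsk5 was at least 15.3-fold lower than in shp53-first cells (adjusted p = 0.00152) and at least 23.1-fold lower than in RASV12 cells (0.000294), and Pcsk6 at least 5.76-fold (0.00113) and 7.20-fold lower (0.000296). Both comparisons of Pcsk6 turned sign under normexp, and with extreme backgrounds replaced its calls ended at -0.80 (0.228) and -0.83 (0.112), while Pcsk5 was at -1.64 and -1.89. Pcsk6 stood at -3.24, -3.70 and -3.46 in shp53-first and -3.59, -2.38 and -3.46 in RASV12 cells, against 3.01, 1.59 and 2.92 in shp53 cells; it fell by 5.97 ± 0.52 (2.02e-05) and 5.64 ± 0.52 (4.18e-05), and these calls passed in all 23 alternatives that gave a value. Those comparisons had 1 protease higher and 1 lower each. Bmp1, the procollagen C-proteinase that also cleaves chordin, passed in none of the 4.

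Other antagonists numbered 13 tested of 17. In RASV12-first against shp53-first cells 2 rose and 2 fell (7.33% and 8.47% of all genes). Fstl3, a follistatin relative that binds activins and some BMPs, stood at 2.72, 1.58 and 1.68 in RASV12-first cells, against 0.83, -0.05 and -0.10 in shp53-first cells, and rose by 1.77 ± 0.32 (adjusted p = 0.00454). Nbl1, a relative of gremlin, rose by 1.25 ± 0.23 (0.00450), a call not kept on these groups alone with the replicate as a block (0.0725). Bmper, which binds BMPs and can act either way, stood at -1.04, -1.13 and -0.98 in RASV12-first cells, 0.55, 1.13 and 1.1 in shp53-first cells, and 2.22, 1.86 and 2.38 in RASV12 cells. It fell by 1.98 ± 0.31 (0.00201) against shp53-first and by 3.20 ± 0.31 (4.14e-05) against RASV12 cells, and the call against RASV12 cells passed in all 24 alternatives.

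Chrdl1, a chordin relative, also passed as lower in RASV12-first than in shp53-first cells (adjusted p = 0.0468), but both groups were below background, no fold is given, and the call passed in 9 of 24 alternatives and not with the replicate as a block (0.0800). Against RASV12 cells 1 antagonist rose and 5 fell in RASV12-first cells, with Chrdl2 at least 2.24-fold lower (adjusted p = 0.000625). That call ended at -0.34 (0.297) with extreme backgrounds replaced, and the difference turned to 1.09 under normexp.

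In shp53-first against shp53 cells none of the 13 antagonists rose and 8 fell, where 17.3% of all genes rose and 20.3% fell. Chrdl1 was below background in shp53-first and RASV12 cells, against -0.63, -1.92 and -0.65 in shp53 cells, and was at least 32.1-fold lower in shp53-first (adjusted p = 1.89e-05) and at least 30.5-fold lower in RASV12 cells (8.17e-06), with log2 differences of -2.23 and -2.64 once extreme backgrounds were replaced. Fst, which encodes follistatin, fell by 2.67 ± 0.42 (0.000782), Nbl1 by 1.31 ± 0.23 (0.00147) and Fstl1 by 1.1 ± 0.21 (0.00256) in shp53-first cells. RASV12 against shp53 cells had 1 higher and 2 lower, the higher being Chrdl2 (1.69 ± 0.51, 0.0328), which was at 1.00 without replicate 2 of shp53 cells and lost the call without any 1 of the RASV12 arrays and with extreme backgrounds replaced (0.42, 0.243).

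Of 14 listed transcriptional targets other than the Id genes, 9 were tested. In RASV12-first against shp53-first cells 1 rose and 4 fell (7.33% and 8.47% of all genes). Tbx2, a T-box repressor, stood at -6.77, -5.70 and -5.92 in RASV12-first cells, with 2 of the 3 arrays below background, -1.28, -1.90 and -2.09 in shp53-first cells, -4.76, -4.02 and -4.97 in RASV12 cells, and -3.03, -2.71 and -3.38 in shp53 cells. It fell by 4.37 ± 0.35 (adjusted p = 2.13e-05) against shp53-first cells, and by 1.72 with extreme backgrounds replaced. Its relative Tbx3 fell by 1.33 ± 0.15 (0.000252).

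Atoh8, a basic helix-loop-helix factor and BMP target, stood at -4.43, -3.02 and -2.95 in RASV12-first cells, -2.36, -1.21 and -1.30 in shp53-first cells, and -1.47, -1.87 and -1.55 in RASV12 cells. It fell by 1.85 ± 0.40 (adjusted p = 0.0108) against shp53-first cells, a call lost with only those groups in the fit (0.0786). Msx1, a homeobox gene, was below background in RASV12-first cells, at least 1.66-fold lower than in shp53-first (0.00649, and 0.0524 after quantile normalization) and at least 3.18-fold lower than in RASV12 cells (9.23e-05), and turned sign under normexp in both; with extreme backgrounds replaced both calls ended, at -0.29 (0.490) and -0.22 (0.497).

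Against RASV12 cells 1 of the 9 targets rose and 6 fell. Msx2 stood at -2.23, -2.94 and -2.80 in RASV12-first cells, against 0.20, 0.72 and 0.37 in RASV12 cells, and fell by 3.08 ± 0.40 (adjusted p = 0.000278). Dlx2, another homeobox gene, fell by 2.79 ± 0.41 (0.000576). Runx2, the osteoblast regulator, rose by 1.62 ± 0.26 (0.000842), a call that passed in all 24 alternatives.

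Targets against shp53 cells split: 2 rose and 2 fell in shp53-first and 3 rose and 3 fell in RASV12 cells. Msx1 stood at -5.79, -5.19 and -4.79 in shp53-first and -4.13, -4.57 and -4.27 in RASV12 cells, against -0.98, -0.81 and -0.96 in shp53 cells, and fell by 4.34 ± 0.24 (adjusted p = 1.05e-06) in shp53-first and by 3.40 ± 0.24 (7.54e-06) in RASV12 cells. Tbx3 rose by 1.88 ± 0.15 (1.24e-05) and 1.37 ± 0.15 (0.000132) in these groups. Hey1 fell by 3.11 ± 0.58 (0.00228) and Tbx2 rose by 1.29 ± 0.35 (0.0154) in shp53-first cells, the Tbx2 call being lost without replicate 3 of shp53 cells (0.0623). Dlx2 (2.04 ± 0.41, 0.00463) and Msx2 (1.98 ± 0.40, 0.00480) rose in RASV12 cells.

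**Figure D4:**
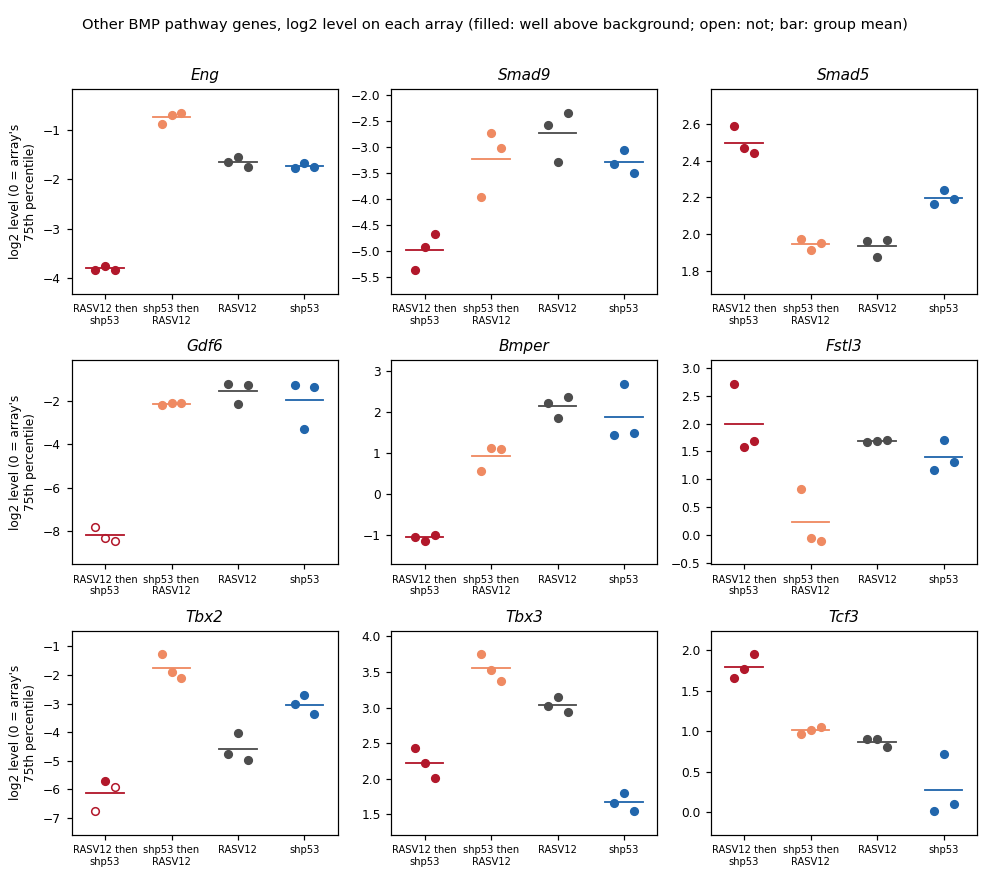
Log2 level on each of the 12 arrays for 9 other pathway genes, drawn as for the 10 genes above. Eng, Smad9, Gdf6, Bmper and Tbx2 are lowest in RASV12-first cells, and Smad5 and Tcf3 are highest there.

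Among 5 dimer partners of the ID proteins, 1 rose and none fell in RASV12-first against shp53-first cells, where 7.33% of all genes rose. That gene was Tcf3, which encodes E2A proteins and is named after its values were seen. It stood at 1.65, 1.77 and 1.95 in RASV12-first cells, 0.97, 1.01 and 1.05 in shp53-first cells, 0.90, 0.91 and 0.80 in RASV12 cells, and 0.01, 0.71 and 0.10 in shp53 cells. It rose by 0.78 ± 0.18 (adjusted p = 0.0142) against shp53-first cells, a call lost without replicate 3 of RASV12-first cells (0.0591), and by 0.92 ± 0.18 (0.00271) against RASV12 cells. Tcf4, another E protein gene, rose by 1.16 ± 0.26 (0.00588) against RASV12 cells, where 3 of the 5 rose and none fell.

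Against shp53 cells, 3 partners rose and none fell in shp53-first cells, and 2 rose and 2 fell in RASV12 cells. Twist2, a mesenchymal helix-loop-helix factor, stood at 4.92, 4.84 and 4.89 in shp53-first and 5.01, 4.28 and 5.07 in RASV12 cells, against 3.32, 2.82 and 3.32 in shp53 cells. It rose by 1.73 ± 0.22 (adjusted p = 0.000202) and 1.63 ± 0.22 (0.000404), calls that passed in all 24 alternatives.

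**Figure D5:**
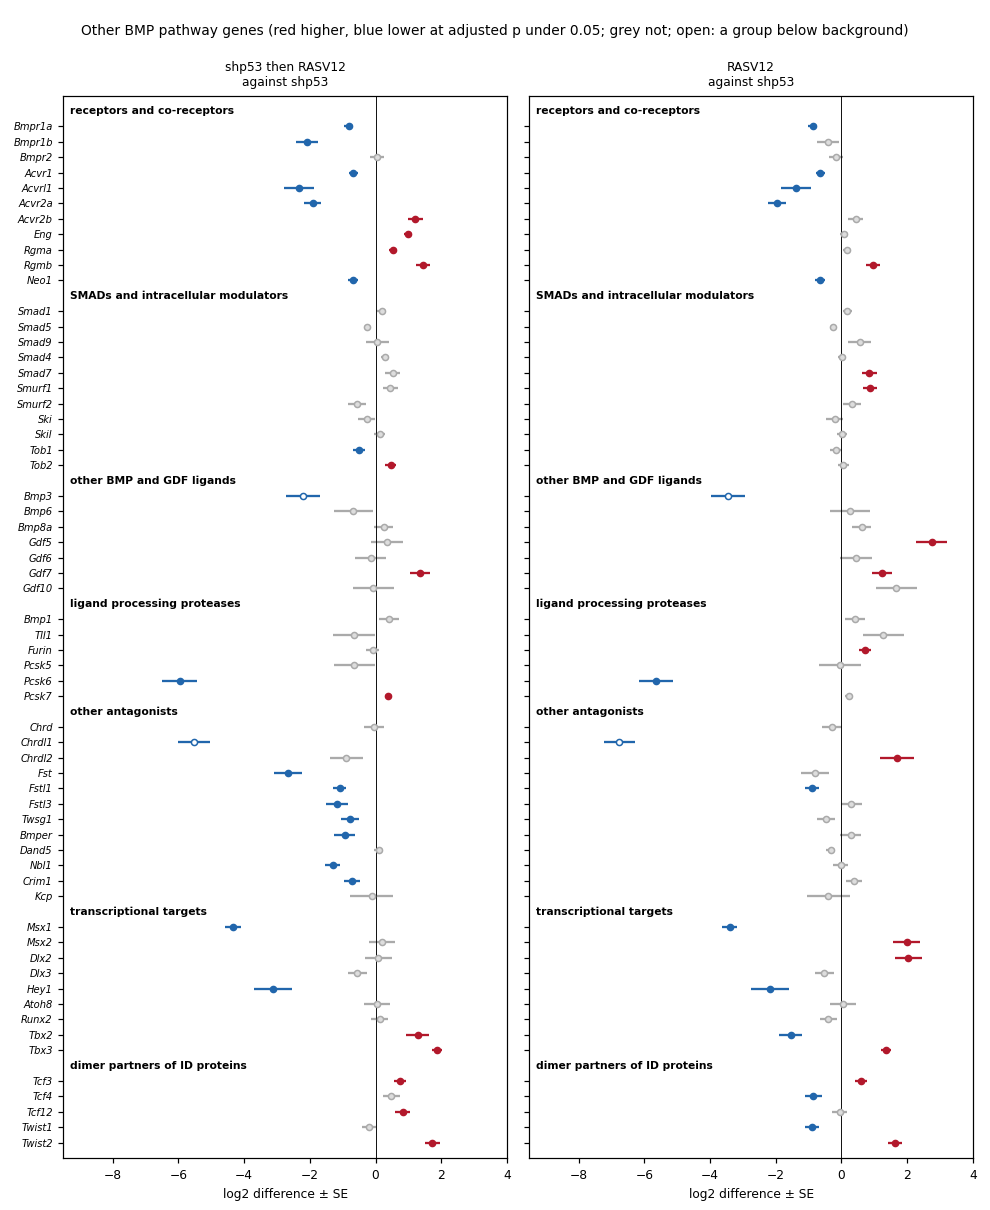
Log2 difference with its standard error of 61 of the 62 other pathway genes, by list, in shp53-first against shp53 cells (left) and RASV12 against shp53 cells (right), drawn as in the plot for RASV12-first cells. Pcsk6, Chrdl1, Msx1 and Acvr2a fell and Twist2 and Tbx3 rose in both, with the shp53 arrays shared.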

How the data were processed

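RNA of 12 cultures was hybridised to 1-colour Agilent arrays. Per the file headers, spot intensity was extracted, background-subtracted and detrended by the authors with Feature Extraction 11.5.1.1; the submitters' processing notes name version 10.7.3.1. The flags used here for background, outliers and saturation are those of the deposited files. The authors' deposited log2 table, whose scale is not stated, was an alternative. On each array it correlated (r from 0.990) with the same signals less the array's 75th percentile and less the shp53 median of each probe. Values agreed within 0.01 for 99.6% of probes in replicate 1 of RASV12 cells. That share was 0.04% to 0.07% on the RASV12-first arrays and replicate 3 of shp53-first cells, so the scale is not matched throughout.

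Processed intensity was taken as log2 minus the array's 75th percentile over non-control spots, 1717 outlier spot values (0.333%) were left out, and spots of a probe were averaged. Of 39429 probes, 28330 had 1 gene name and 11099 none. A probe was kept where 1 group or more had all of its 3 arrays well above background, and the kept probe with the highest mean stood for a gene. A linear model with 1 mean per group was fitted to all 12 arrays with limma 3.58.1 (R 4.3.3), and p-values were adjusted by Benjamini-Hochberg within a comparison over 14444 genes; the number of arrays limits the precision. The procedure was tested on simulated data.

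The 10 genes and the pathway lists were chosen with earlier results of these data known. Named pathway genes are those called with a log2 difference of at least 1, up to 4 per list and comparison by adjusted p; exceptions are marked in the text, and 1 gene that the counts include is not reported here. Replicate numbers come from the sample titles and coincide with the slide. Arrays of the same number deviated together in RASV12-first and shp53-first cells (r = 0.598, 0.447 and 0.320), and not throughout in the other comparisons. Replicates 2 and 3 of RASV12-first cells also deviated with another number of shp53-first cells (r = 0.420 and 0.490). These values therefore do not settle a pairing by number. Alternatives changed the background correction (normexp with an offset of 50), scaling, filter, choice of probe, fit and arrays.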

Additional observations from a re-analysis of the deposited data

How the results depend on the processing

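Counts below run in the order RASV12-first against shp53-first, RASV12-first against RASV12, shp53-first against shp53, RASV12 against shp53. Genes called by limma fell to 424, 1489, 1702 and 1031 with the closest pair of each group averaged (pathway genes 5, 13, 10 and 7), and to 65, 823, 386 and 436 under normexp (pathway 0, 5, 4 and 2; 7 of the first had an unadjusted p under 0.05). They were 6937, 9649, 9873 and 8451 without the 4 arrays that stood apart (pathway 39, 49 and 42 in all but RASV12-first against RASV12 cells, whose count moved by less than 1.5 times). The first comparison had 1299 genes with normexp after 77 extreme local backgrounds were replaced, an alternative added after seeing the data, and 1381 with 2 groups in the fit. With a filter on all 12 arrays it had 14 of 52 pathway genes, beside 1704 of 12171 genes. Leaving out 1 array gave 1485 to 2804 (lowest without replicate 3 of RASV12-first cells), 4154 to 6285, 3803 to 6279 and 2723 to 4711 genes, and 18 to 25, 29 to 40, 24 to 33 and 18 to 28 pathway genes. With the replicate as a block the counts were 2267, 5708, 5551 and 3933 genes and 20, 36, 28 and 26 pathway genes; among the genes named in the text the block ended the calls of Chrdl1 and Smad1 in the first comparison, and no other.

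Under normexp these log2 differences changed sign: in RASV12-first against shp53-first cells Chrdl1 0.70, Gdf5 0.22 (0.17 with the filter on all 12 arrays, which leaves its dimmer probe), Msx1 0.69, Pcsk6 0.32 and Smad9 0.14; against RASV12 cells Bmpr1b 0.14, Chrdl2 1.09, Msx1 1.18, Pcsk6 0.66, Smad5 -0.059 and Smad9 0.28; against shp53 cells Gdf7 -0.59 and Rgmb -0.17 in shp53-first cells and Chrdl2 -1.29 and Gdf7 -1.18 in RASV12 cells. The cause was not tested. Of 74 named pathway and Trp53 results, 8 kept their call under normexp and 62 did so once extreme local backgrounds were replaced, where these calls held at a smaller size: Trp53 -2.20 and Bmpr1b -0.77 in RASV12-first against RASV12 cells, Atoh8 -1.09 in RASV12-first against shp53-first cells, and Acvr2a -1.24, Bmpr1b -1.16, Gdf7 0.69 and Hey1 -1.51 in shp53-first against shp53 cells. With the closest pair averaged, 36 of the 74 kept their call. The first comparison lost Acvr2b, Atoh8, Bmper, Chrdl1, Fstl3, Gdf5, Msx1, Nbl1, Pcsk5, Pcsk6, Smad1, Smad5, Smad9 and Tcf3. RASV12-first against RASV12 cells lost calls including Acvrl1, Bmpr1b, Smad1, Smad5, Tcf3 and Tcf4. In shp53-first against shp53 cells Acvr1, Acvr2b, Bmp3, Bmpr1a, Fst, Fstl1, Gdf7, Nbl1 and Tbx2 were lost. RASV12 against shp53 cells lost Acvr1, Acvrl1, Bmpr1a, Chrdl2, Dlx2, Gdf5, Gdf7 and Msx2. Where groups did not overlap, the differences of Bmp2, Bmp4, Grem1, Nog, Smad6 and the Id genes kept their sign in all alternatives that gave a value.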
